A study of Mus musculus with 24 samples.

Results

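Ror2 is a receptor tyrosine kinase for Wnt5a, and the comparison described here asked how the transcriptome of the whole left lung lobe differed at postnatal day 5 (P5) when Ror2 had been deleted in the lung epithelium. It took in 6 of the 24 lungs of the study: 3 control lungs, labelled WT, and 3 mutant lungs of genotype Sox9Cre/+; Ror2f/f. The study sequenced lobes of Ror2 and Vangl2 epithelial mutants at P2 and P5, each with control lungs of its own. In the mutants Cre was made from the Sox9 locus, which is active in the distal lung epithelium, and the floxed exons of Ror2 are removed in the descendants of those cells. Sox9 is also used by cartilage and other tissues. The mutants carry Cre in the Sox9 locus itself. The controls, from their label WT, are taken not to carry it, though their Cre status is not spelled out. On that reading the Cre allele and the loss of Ror2 cannot be told apart. The labels do not say whether mutants and controls were littermates, and p-values measure the spread between these lungs.

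Wnt5a binding to Ror2 feeds the noncanonical Wnt pathway that runs through the planar cell polarity proteins Vangl, Prickle, Celsr, Frizzled and Dishevelled. The pathway orients cells within a sheet and controls the actomyosin cytoskeleton. In the newborn mouse lung, the days around P5 are those in which secondary septa grow out from the walls of the saccules, with flat alveolar type I cells, surfactant-making alveolar type II cells, Pdgfra+ myofibroblasts and newly laid elastic fibres all taking part.

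Each value is a normalized count, that is, the reads of a gene in a lung after division by the size factor of that lung. The values are not divided by gene length, so they compare lungs and not genes with one another. Control 1 held no reads on part of the genome (chromosomes 6 to 9, X and the part of chromosome 5 from Cckar onwards), and it was treated as missing there. Of 17175 genes tested, 11704 thus had 3 control lungs and 5471 had 2, and a gene given below with 2 control values is one of the latter. A log2 fold change is the mean log2(normalized count + 1) of the mutants minus that of the controls, a scale that shrinks differences at low counts, and it is given with the standard error (SE) and the Benjamini-Hochberg adjusted p of limma over all genes tested. An exact permutation test of a single gene cannot give a p below 0.1 with 3 lungs against 3, or below 0.2 with 2 against 3. In RNA of a whole lobe, fewer cells of a type and less RNA per cell cannot be told apart.

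The mutant lungs were not alike. The controls correlated with one another at Pearson's r of 0.987 to 0.988 across genes, mutant 1 with the controls at 0.970 to 0.974, mutant 2 at 0.980 to 0.982 and mutant 3 at 0.985 to 0.986. The first principal component held 58.9% of the variance and placed mutant 1 farthest from the controls (36.8), then mutant 2 (18.1) and mutant 3 (-4.94), with the controls between -21.4 and -13.7. Control 2 had the transcripts of a female (Xist at 11859 normalized counts), control 3 and the mutants those of males, and control 1 could not be read on X or Y. Sex was therefore not balanced, and its part in any result was not tested.

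Ror2 itself, the deleted gene, was not measurably lower in the mutant lobes. It had 526, 368 and 597 normalized counts in controls 1 to 3 and 362, 440 and 521 in mutants 1 to 3, a log2 fold change of -0.16 (SE 0.20, adjusted p = 0.69; exact permutation test, two-sided p = 0.4). The groups overlapped, and the lowest value of all was in a mutant and the highest in a control. The lobe includes mesenchyme, where Ror2 is also made and where Cre is not expected to act, and the labels do not say which exons are floxed, so this value does not check the deletion in the epithelium. Sox9, the locus that carries Cre, had 83.0, 155 and 102 normalized counts in the controls and 53.9, 40.7 and 50.6 in the mutants. All 3 mutants were below all 3 controls, with a log2 fold change of -1.17 (SE 0.26, adjusted p = 0.113) that did not pass the threshold. Sox9 was below every control of its own also in the other Sox9Cre mutants, at 99.9, 87.3 and 81.3 against 105, 153 and 128 in Vangl2 mutants at P5 and at 104, 77.7 and 93.5 against 127, 153 and 129 in Ror2 mutants at P2.

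The pathway in which Ror2 acts showed no gene past an adjusted p of 0.05 by limma among its 36 measured members, against 0.180% of all genes tested. At an unadjusted limma p under 0.05 there were 6, of which 4 were higher and 2 lower. Of all 17175 genes tested, 1744 were higher and 1453 lower at that p. Among the ligands, Wnt5a had 3024, 3103 and 3003 normalized counts in the controls and 2977, 3415 and 3753 in the mutants (log2 fold change 0.15, SE 0.09, adjusted p = 0.407). Those groups overlapped. Among the core polarity proteins, Prickle1 had 1345, 1385 and 1233 in the controls and 1708, 1941 and 1994 in the mutants (log2 fold change 0.51, SE 0.08, adjusted p = 0.0741). All 3 mutants were above all 3 controls, at 1.42-fold. Vangl2 had 306, 326 and 287 in the controls and 176.5, 265 and 338 in the mutants, a span wide enough to enclose the controls (log2 fold change -0.28, adjusted p = 0.505). Ror1, the paralog of Ror2, also spread widely in the mutants, from 230.5 in mutant 1 to 527 in mutant 3, with controls between 496 and 545. In the list as a whole 4 genes lay above and 6 below in every mutant lung, against 15.5% and 14.3% of all genes tested, and the median log2 fold change was -0.06 against 0.0034 over all genes. Without mutant 3 there were 9 above and 14 below, against 27.3% and 24.9% of all genes. The 4 above were Prickle1, Prickle3, the Dishevelled gene Dvl1 and the polarity effector Fuz. The 6 below were Dvl3, the receptors Fzd1 and Ptk7, and Prickle2, Invs and Rac1. In canonical Wnt signalling 7 of 31 genes lay above and 8 below. These included the transcription factor Lef1 at 556, 551 and 538 against 360.5, 402 and 432 (log2 fold change -0.46, adjusted p = 0.103) and Nkd1, a feedback inhibitor of Wnt signalling, at 5207 and 4680 against 3713, 3636 and 3622 (-0.43, adjusted p = 0.0966).

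**Figure D1:**
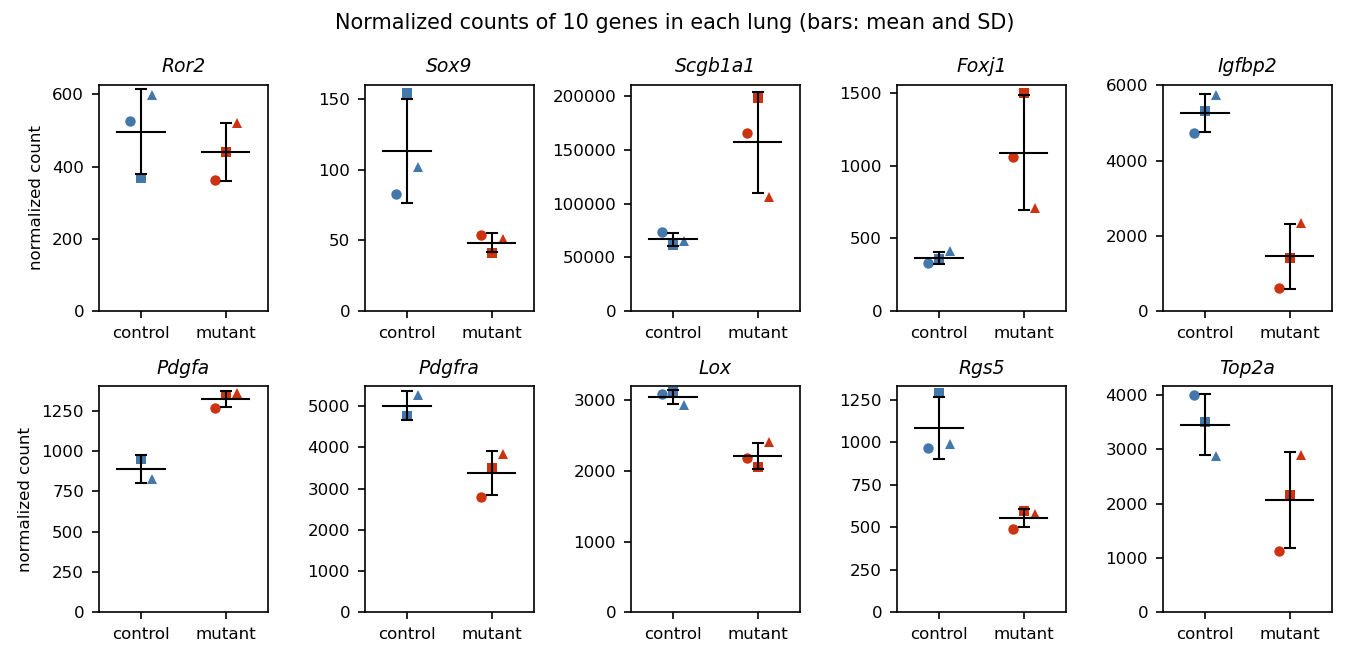
Normalized counts (y axes, linear, from 0) of 10 genes in control lungs (blue) and mutant lungs (red); circles, squares and triangles are replicates 1, 2 and 3, long bars are means and short bars the SD, and control 1 is missing for Pdgfa and Pdgfra. The groups of Ror2 and Top2a overlap, and in the other 8 panels they do not, with Scgb1a1, Foxj1 and Pdgfa above and Sox9, Igfbp2, Pdgfra, Lox and Rgs5 below the controls.

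Across the genome 31 genes passed an adjusted p of 0.05, of which 15 rose and 16 fell. In each of the 31 every mutant lung lay on the same side of every control lung, which selection for a low p favours. Of all genes tested, 15.5% lay above and 14.3% below in every mutant lung. The unadjusted p was under 0.05 in 3197 genes, 1744 higher and 1453 lower. The number of genes past the adjusted threshold turned on single lungs, from 0 by limma without control 2 or without mutant 2 (1895 and 1841 at an unadjusted p under 0.05) to 1007 without mutant 3. It was 6 without control 1 or control 3 and 63 without mutant 1. Of the 31 genes, 4 (Retnla, Stc1, Clec2d and 1700017B05Rik) were among the 6 without control 1 and 0 among the 6 without control 3, where the lowest adjusted p of the 31 was 0.114 (limma), while 30 were past the threshold without mutant 1 and 30 without mutant 3. Gabrd was not tested when a mutant was left out, since it then failed the filter.

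The genes that rose held several products of airway epithelium and its secretions. Bpifb1, a secreted protein of airway goblet and club cells, had 16.8, 5.02 and 21.8 normalized counts in the controls and 519, 611 and 182 in the mutants. It rose 28.8-fold (log2 fold change 4.85, SE 0.60, adjusted p = 0.0389). Pigr, the receptor that carries polymeric IgA across epithelium, went from 14.9, 20.1 and 18.9 to 282, 252 and 92.6, a rise in every mutant lung (log2 fold change 3.32, SE 0.41, adjusted p = 0.0389). Retnla, a secreted resistin-like protein of airway epithelium and alternatively activated macrophages, had the largest counts of the steep risers. It had 404, 231 and 255 normalized counts in the controls and 4025, 5127 and 2124 in the mutants, and rose 12.2-fold (log2 fold change 3.61, SE 0.33, adjusted p = 0.0269). In all 3 genes mutant 3 was the lowest of the mutants and still far above the controls. Control lungs of the other comparisons, normalized apart from these, varied far more. Bpifb1 had 520, 7.05 and 193 in the Vangl2 P5 controls and 12.4, 182 and 1275 in the Ror2 P2 controls. In the same order, Pigr had 125, 18.8 and 72.6, then 36.1, 48.7 and 461. Retnla had 1776, 115 and 740, then 353, 1109 and 3507. The folds thus rest on the 3 controls used here. Mapk15, an atypical MAP kinase used in making cilia, rose 3.83-fold, from 53.2, 47.2 and 51.6 to 222, 257 and 133 (adjusted p = 0.0471). Aqp3, a water and glycerol channel of basal and airway cells, rose 5.77-fold from between 7.03 and 13.1 to between 44.8 and 79.3 (adjusted p = 0.0471).

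Krt18, a keratin of simple epithelia, showed a smaller and tighter difference. Its normalized counts were 1025, 954 and 987 in the controls and 1631, 1636 and 1454 in the mutants, a rise of 1.59-fold (log2 fold change 0.67, SE 0.07, adjusted p = 0.0269). Gstm1, a glutathione transferase, rose 1.53-fold (2324, 2647 and 2393 to 3678, 3976 and 3595), and Clic3, an intracellular chloride channel protein, rose 1.42-fold (1439, 1368 and 1330 to 1913, 1978 and 1963). Clec2d, a lectin-like ligand of natural killer cell receptors, rose 1.75-fold, from 941 and 969 to 1652, 1696 and 1672. Serpina3g and Serpina3f, protease inhibitors of the acute phase response, rose 4.45-fold and 8.54-fold. Serpina3g went from between 44.2 and 55.6 to between 183 and 315, and Serpina3f from at most 13.1 to between 55.4 and 119. The Serpina3 genes of the mouse are close copies of one another, so reads may have been split between them and these values are uncertain. The other genes that rose were Mycl1, a Myc-family transcription factor, by 2.71-fold, Rasgef1a, an exchange factor for Ras proteins, by 1.87-fold, and Nxph3, a neurexin ligand, by 3.72-fold. Gabrd, the delta subunit of the GABA-A receptor, was listed at 0 in each of the 3 controls and at 13.7, 12.5 and 12.4 in the mutants, so no fold is given. It met the filter (1 or more in at least 3 lungs) only through the mutants, and its controls showed no spread. Its place among the genes that rose is therefore uncertain.

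The genes that fell were mostly of moderate to high expression and changed by about the same amount in each mutant. Such evenness is favoured by selection for a low p. Kcnk5, a pH-sensitive potassium channel, had 530, 542 and 586 normalized counts in the controls and 231.5, 238 and 274 in the mutants, 2.23-fold lower (log2 fold change -1.16, SE 0.10, adjusted p = 0.0269). Stc1, a secreted glycoprotein hormone, had 1029, 1296 and 1281 against 615, 564 and 566 (2.06-fold lower, adjusted p = 0.0269). Dusp8, a phosphatase that inactivates MAP kinases, had 2005 and 1678 against 872, 826 and 744 (2.26-fold lower, adjusted p = 0.0269). Irx1, a homeobox factor of the developing lung, had 2114, 1972 and 2188 against 1331, 1324 and 1278 (1.59-fold lower, adjusted p = 0.0269). In the Vangl2 P5 controls, normalized apart from these lungs, Kcnk5 had 455, 182 and 266 and Dusp8 had 1278, 420 and 841. Irx1 had 2190, 1118 and 1577 in them. Those ranges take in the mutant values here, while Stc1, at 985, 993 and 934, stayed above its mutants.

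Several others that fell are products of mesenchyme. Ogn, a small leucine-rich proteoglycan of connective tissue, had 5651, 5595 and 6382 normalized counts against 3735, 3480 and 3678, 1.62-fold lower (log2 fold change -0.69, SE 0.08, adjusted p = 0.0269). Aoc3, an amine oxidase of smooth muscle, fat and vessel walls, had 839, 896 and 768 against 420, 421 and 495, 1.87-fold lower. Ccdc80, a secreted matrix protein, had 2351, 2233 and 2475 against 1348, 1372 and 1594, 1.64-fold lower. Rgs5, a regulator of G protein signalling and marker of pericytes, had 969, 1292 and 992 against 494, 596 and 576, 1.94-fold lower (adjusted p = 0.0471). No mutant lung reached the lowest control in any of these 4 genes. Disp2, a relative of the Hedgehog release protein Dispatched, had 323, 400 and 441 against 196, 186 and 192, 2.01-fold lower (log2 fold change -1.01, SE 0.14). Nt5e, an ecto-nucleotidase that makes adenosine, Arsb, a lysosomal sulfatase, and 1700017B05Rik, a gene named only by its clone, fell by between 1.47-fold and 1.82-fold. Bhlhe40, a transcriptional repressor of the circadian clock, had 1080 and 1127 against 664, 606 and 638 (1.74-fold lower, adjusted p = 0.0389). Gal, the neuropeptide galanin, was low throughout, at 24.3, 36.1 and 31.8 against 3.17, 3.13 and 1.91. Zfp429, a zinc finger gene of a large family of near copies, had 90.5, 48.2 and 68.5 against 7.40, 4.18 and 2.86 (12.3-fold lower, log2 fold change -3.62, SE 0.39, adjusted p = 0.0269).

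**Figure D2:**
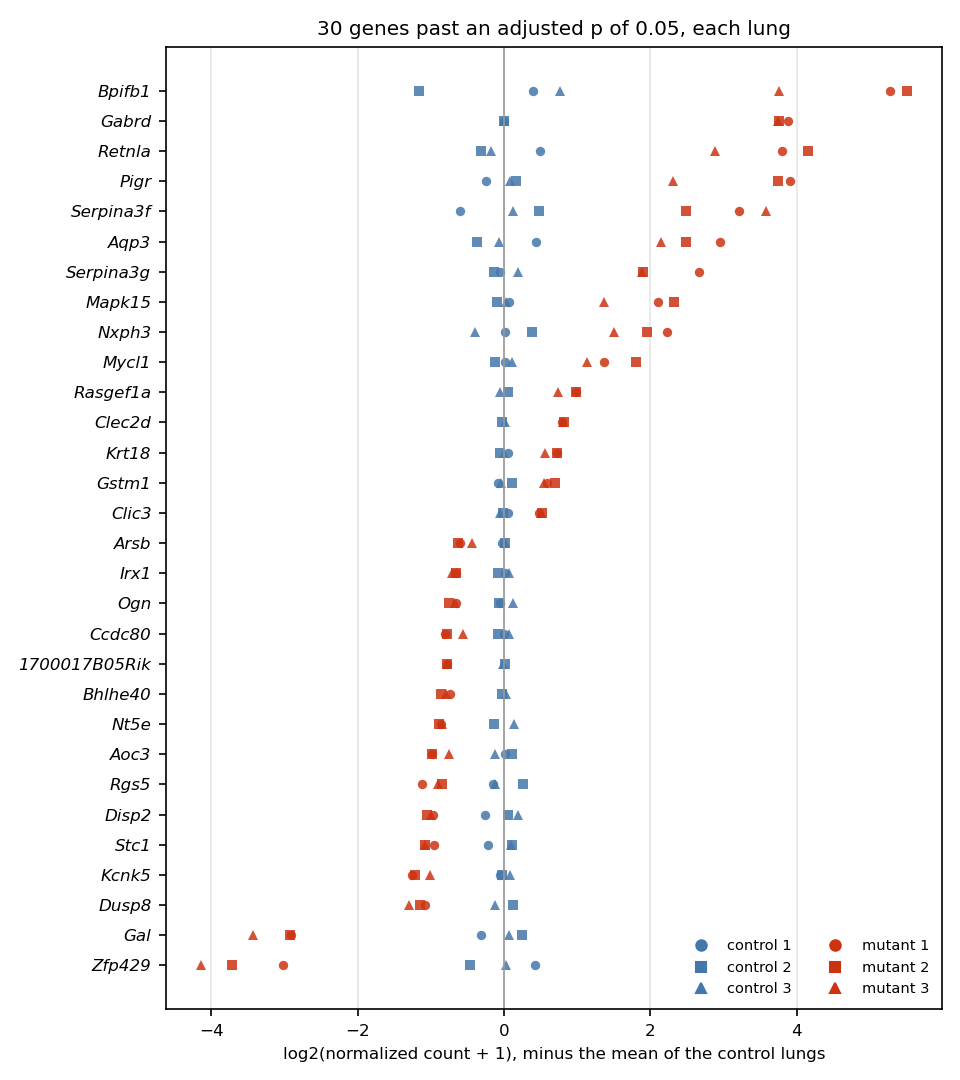
Of the 31 genes past an adjusted p of 0.05, 30 (y axis), each lung's log2(normalized count + 1) minus the mean of the control lungs (x axis, log2 units); blue symbols are control lungs, red symbols mutant lungs, and control 1 is missing for 6 genes. The 15 genes that rose run from Bpifb1 (4.85) to Clic3 (0.50) and the 15 drawn that fell from Arsb (-0.55) to Zfp429 (-3.62), and in all 30 the red and blue symbols are apart.

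Among the lists of cell type markers, those of airway cells had the highest median log2 fold changes. No member of the club, ciliated or neuroendocrine list passed an adjusted p of 0.05 by limma, and the values below are differences that did not. At an unadjusted p under 0.05, 11, 15 and 5 of their members were higher and 0 lower. Of all 17175 genes tested, 1744 were higher and 1453 lower at that p. Club cells are the secretory cells of the conducting airway, and 11 of their 14 measured markers were higher in every mutant lung than in every control, against 15.5% of all genes. The median log2 fold change of the list was 1.27. Scgb1a1, the club cell secretory protein, had 73648, 61371 and 65149 normalized counts in the controls and 165676, 198724 and 106516 in the mutants (2.28-fold, log2 fold change 1.19, SE 0.24, adjusted p = 0.0997). Scgb3a2, a second secretoglobin of these cells, had 4386, 2488 and 4591 against 15160, 21054 and 8511 (3.78-fold, adjusted p = 0.0807). The detoxifying enzymes of club cells read the same way, with Aldh1a1 at 1959, 1973 and 2205 against 6721, 7320 and 3496 (2.72-fold, adjusted p = 0.0781) and Cbr2 at 13796, 14028 and 14945 against 29175, 31087 and 20412 (1.86-fold, adjusted p = 0.0807). Mutants 1 and 2 were far above the controls in these genes and mutant 3 lay between. The median of the list, relative to the control mean, was 1.44, 1.64 and 0.71 in mutants 1 to 3 and between -0.07 and 0.15 in the controls.

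Ciliated cells carry the motile cilia that clear mucus, and 15 of their 16 measured markers were higher in every mutant lung, against 15.5% of all genes. The median log2 fold change of the list was 1.15. Foxj1, the transcription factor that switches on the motile cilium programme, had 332, 356 and 412 normalized counts in the controls and 1061, 1500 and 708 in the mutants (2.85-fold, log2 fold change 1.51, SE 0.24, adjusted p = 0.0735). Tekt1, a protein of the ciliary microtubules, had 95.1, 66.3 and 64.5 against 199.8, 275 and 138 (2.63-fold, adjusted p = 0.0996), and Tekt4 had 63.4, 52.2 and 61.5 against 121.6, 179.6 and 104 (2.21-fold). 1700009P17Rik, the table's name for the basal body gene Cfap126, had 190.3, 174.7 and 202 against 385, 572 and 340 (2.23-fold, adjusted p = 0.0742). The exception was Tubb4b, a tubulin that most cells make, at a log2 fold change of 0.04. Neuroendocrine cells are rare sensory cells of the airway, and 6 of their 8 measured markers were higher in every mutant lung. The median of the list was 1.22, and 0.81 without mutant 1. These markers were low: those with a value in every lung summed to between 28.8 and 45.2 normalized counts in the controls and between 73.5 and 107 in the mutants. Resp18, a protein of their secretory granules, had 4.66, 6.02 and 4.96 normalized counts against 19.03, 16.7 and 13.4 (adjusted p = 0.111), and Uchl1 overlapped between the groups. Sox2, the transcription factor of the proximal airway, had 65.3, 44.2 and 62.5 against 202, 231 and 122 (3.12-fold, log2 fold change 1.64, SE 0.28, adjusted p = 0.0761).

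The promoters of the ciliated markers are shown because the members moved together and their factor, Rfx, has a known recognition sequence. GTTGCC, part of the X-box, was present on either strand between 250 bases before and 50 bases after the start site in 9 of the 13 ciliated markers found in the RefSeq promoter table (69.2%), against 14.1% of the 27025 genes of that table. Foxj1 and Rfx factors work together on cilium genes. The stretches below, from RefSeq on GRCm38.p6, read 5′ to 3′ on the gene's strand with GTTGCC in capitals. A match describes the letters and was not tested for binding.
Ccdc153 (chr9:44240485-44240570, plus strand): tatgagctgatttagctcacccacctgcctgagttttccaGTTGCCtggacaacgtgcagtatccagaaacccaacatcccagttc
Dynlrb2 (chr8:116504924-116505009, plus strand): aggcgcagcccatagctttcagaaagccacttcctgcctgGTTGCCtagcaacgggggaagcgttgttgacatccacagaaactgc
Mcin (chr13:112993633-112993718, plus strand): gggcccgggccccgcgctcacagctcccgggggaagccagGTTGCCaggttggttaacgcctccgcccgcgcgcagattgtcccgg

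These 3 genes are a coiled-coil protein of motile cilia, a dynein light chain, and the regulator of multiciliated cells now called Mcidas. Their log2 fold changes were 1.20, 1.52 and 1.36, and each was higher in all 3 mutant lungs than in all 3 controls or, where control 1 was missing, in both. The motif was found in 0 of the 7 club cell genes with a promoter in the table and in 1 of 12 of the genes that rose. Both strands were searched for 14 strings in all: GTTGCC and the longer X-box strings GTTGCCA and GTTGCCATG, which contain it, the X-box palindrome, TTTGAA and TTCGAA (cell cycle homology), CCAAT (NF-Y), TTTGCGC (E2F), TGTTTAC and TGTTTGC (forkhead), TTCCNGGAA (STAT), TGACGTCA (CREB), TTGCNNAA (C/EBP) and the NF-kB site. Their shares of all promoters ran from 0.174% for the NF-kB site to 41.1% for CCAAT, and the strings were chosen after the values had been seen.

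Genes that most lung epithelium uses read modestly higher. Of 16 in the list, 12 were higher in every mutant lung and 1, Sox9, was lower, against 15.5% and 14.3% of all genes. The median log2 fold change of the list was 0.44. Krt18 was the 1 that passed the threshold. Krt19, its partner keratin in simple epithelia, had 1493, 1407 and 1308 normalized counts against 2139, 1898 and 1879 (1.41-fold, adjusted p = 0.0741). Foxa1, a pioneer factor of endoderm, had 502, 545 and 535 against 869, 827 and 668 (1.48-fold, adjusted p = 0.0966).

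The medians of the alveolar lists, whose cells descend from those in which Sox9Cre acts, were small. For alveolar type I cells, the flat cells of gas exchange, 4 of 22 markers were higher and 5 lower in every mutant lung, and the median log2 fold change was 0.08. For alveolar type II cells it was 3 and 3 of 22, also with a median of 0.08, where 15.5% of all genes were higher and 14.3% lower. These counts turned on single lungs. Without control 1, 10 of the 22 type II markers were higher (45.5%, against 19.5% of all genes) with a median of 0.17, and without mutant 2 or mutant 3, 8 of the 22 type I markers were higher (36.4%, against 18.1% and 27.3% of all genes). Aqp5, a water channel of type I cells, had 3266.5, 3184 and 3579 normalized counts in the controls and 3332, 2843 and 2961 in the mutants, and Sftpc, the surfactant protein of type II cells, had 177525, 165811 and 151760 against 154116, 123499 and 141171. Both overlapped between the groups. Igfbp2, an insulin-like growth factor binding protein that marks mature type I cells, stood apart. Its normalized counts were 4722, 5312 and 5733 in the controls and 614, 1400.5 and 2337 in the mutants, 4.15-fold lower (log2 fold change -2.05, SE 0.41, adjusted p = 0.0996). All 3 mutants lay below all 3 controls, with mutant 1 lowest. Spock2, a matrix proteoglycan of type I cells, had 6460, 6515 and 7648 against 4706, 4715 and 5193 (1.41-fold lower, adjusted p = 0.0807). Vegfa, the endothelial growth factor that type I cells supply, had 9692, 10172 and 11084 against 16295, 15124 and 12542 (1.41-fold higher, adjusted p = 0.113). Etv5, a target of FGF signalling in type II cells, had 2476, 2297 and 2202 against 1436, 1722 and 2104 (log2 fold change -0.42, adjusted p = 0.172).

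**Figure D3:**
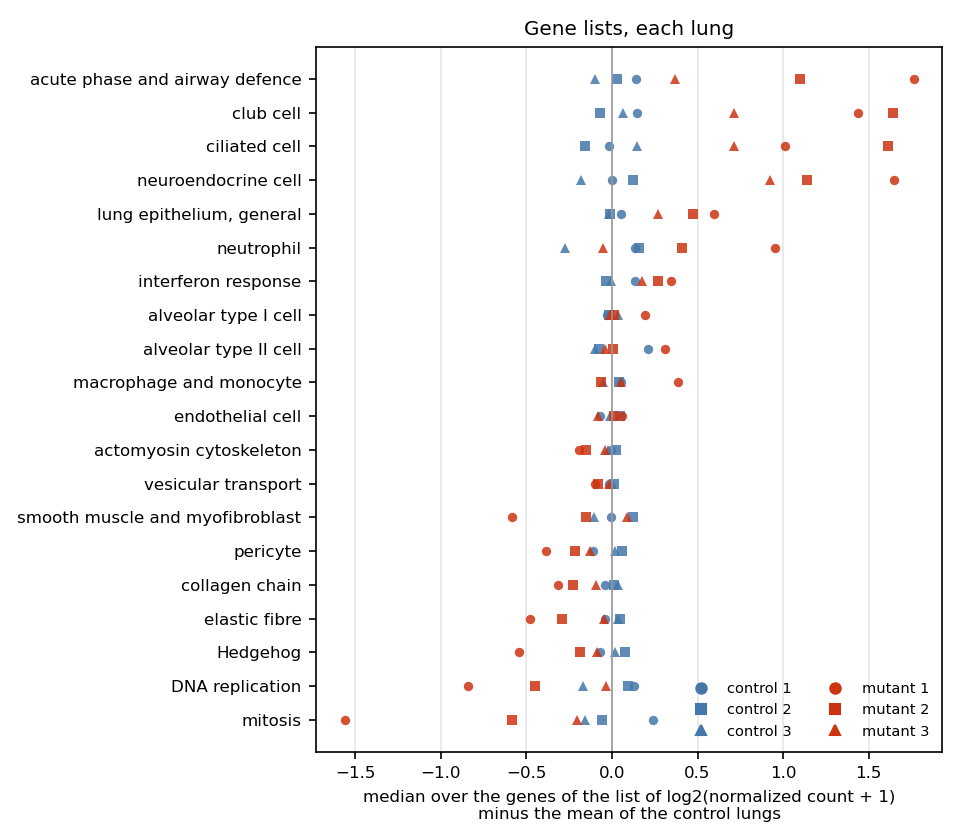
For 20 gene lists (y axis), the median over the list's genes of log2(normalized count + 1) minus the mean of the control lungs (x axis, log2 units) in each lung; blue symbols are control lungs and red symbols mutant lungs, with circles, squares and triangles for replicates 1, 2 and 3. Mutant 3 lies nearer to the controls than mutant 1 in the lists at the top and the bottom, at 0.71 against 1.44 for club cells and -0.20 against -1.56 for mitosis.

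Signals that pass between epithelium and mesenchyme were read in the order of ligand, receptor and target. Pdgfa, the epithelial ligand that recruits myofibroblast precursors, had 950 and 827 normalized counts in the controls and 1264, 1347 and 1358 in the mutants (1.49-fold higher, log2 fold change 0.58, SE 0.09, adjusted p = 0.0781). Pdgfra, its receptor on those precursors, had 4766 and 5258 against 2792, 3509 and 3842 (1.49-fold lower, log2 fold change -0.58, SE 0.14, adjusted p = 0.132). Ligand and receptor thus differed in opposite directions, each without overlap and neither past the threshold. Pdgfrb, the receptor of pericytes, had 7834, 8615 and 9023 against 5657, 7416 and 7774 (log2 fold change -0.30, adjusted p = 0.258). In Hedgehog signalling 5 of 14 genes were lower and 0 higher in every mutant lung, against 14.3% and 15.5% of all genes, with a median of -0.24 that came to -0.086 without mutant 1 and to -0.37 without mutant 3. The 5 were the receptor subunit Boc (2065, 2142 and 2254 against 1477, 1629 and 1731; adjusted p = 0.0865), the feedback inhibitor Hhip (5542 and 5853 against 3811, 3979 and 4517; adjusted p = 0.109), and the transcription factors Gli2, Gli3 and Foxf1, at log2 fold changes of -0.35, -0.46 and -0.33.

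In FGF signalling 3 of 16 genes lay above and 3 below in every mutant lung, and in TGF-beta and BMP signalling 4 of 24 above and 4 below. Of all genes, 15.5% lay above and 14.3% below. Without control 1, 6 of the 16 FGF genes were below, with a median of -0.22 against -0.04 in all lungs, and 7 of the 24 TGF-beta and BMP genes. In that setting 18.6% of all genes were below. Fgf9, a growth factor of epithelium and mesothelium, had 17.7, 37.2 and 41.7 normalized counts against 46.5, 76.2 and 96.4 (log2 fold change 1.18, SE 0.39, adjusted p = 0.187). Bmp5, a bone morphogenetic protein of the mesenchyme, had 3025 and 3311 against 1244, 2062 and 2412 (log2 fold change -0.79, SE 0.26, adjusted p = 0.19). Neither pair of groups overlapped.

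Genes of the mesenchyme and its matrix were lower by small amounts. In the elastic fibre list 10 of 21 genes were lower and 0 higher in every mutant lung, against 14.3% and 15.5% of all genes, and the median was -0.30. Lox, the enzyme that crosslinks elastin and collagen, had 3085, 3107 and 2926 normalized counts in the controls and 2179, 2046 and 2409 in the mutants (1.38-fold lower, log2 fold change -0.46, SE 0.08, adjusted p = 0.0741). Mfap5, a microfibril protein, had 1085 and 956 against 615, 624 and 714 (1.57-fold lower, adjusted p = 0.0807), and Eln, elastin itself, had 104229 and 119743 against 88164, 75665 and 86387 (1.34-fold lower, adjusted p = 0.26). Of the collagen chains 8 of 21 were lower in every mutant lung, with a median of -0.25. Col1a1, the main fibrillar chain, had 24555, 27894 and 30025 against 17490, 19972 and 24279 (log2 fold change -0.43, adjusted p = 0.184). Without mutant 1 the medians of the elastic fibre and collagen lists were -0.18 and -0.17.

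Contractile genes were lower in fewer members. Of 20 smooth muscle and myofibroblast markers 5 were lower in every mutant lung, against 14.3% of all genes. The median of the list was -0.21, and it came to -0.04 without mutant 1 and -0.41 without mutant 3. Acta2, smooth muscle actin, had 16710, 17297 and 15162 against 10113, 14444 and 18898, so that the highest lung of all was mutant 3. Smtn, a protein of contractile filaments, had 4545, 3875 and 3944 against 2571, 3183 and 3618 (log2 fold change -0.41, adjusted p = 0.172). Of 12 pericyte markers 6 were lower in every mutant lung, with a median of -0.24, among them Rgs5, which fell, and Cspg4, at 803 and 709.5 against 447, 570 and 636.5. Endothelial markers had a median of 0.04, with 0 of 29 above and 4 below, against 15.5% and 14.3% of all genes. Without control 2 there were 6 above and 7 below, against 21.2% and 19.5% of all genes.

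In the gene group of the actomyosin cytoskeleton, which the polarity pathway acts on, 20 of 57 genes were lower and 4 higher in every mutant lung, against 14.3% and 15.5% of all genes, with a median of -0.13. The lower genes were 31 without control 3 and 35 without mutant 3, where 20.7% and 24.9% of all genes were lower. Mylk, the kinase of myosin light chain, had 14737, 15234 and 15801 normalized counts against 11021, 12527 and 13785 (log2 fold change -0.30, adjusted p = 0.183). Limk1 and Limk2, kinases that stabilise actin filaments through cofilin, read in opposite directions, at -0.38 and 0.28. Vesicular transport showed 14 of 59 genes lower and 7 higher, with a median of -0.06, and 23 and 27 lower without control 3 and without mutant 3. In each group 23 genes had only 2 control values, and of all genes with 2 control values 18.3% were lower and 19.6% higher in every mutant lung. Of the vesicular genes, the lowest p was that of Stx3, a syntaxin of apical membranes, at 1116, 999 and 1062 against 1604, 1317 and 1207. No gene of either group passed the threshold by limma. At an unadjusted p under 0.05 there were 2 higher and 12 lower in the first and 1 higher and 8 lower in the second. Over all 17175 genes tested it was 1744 higher and 1453 lower.

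Genes of cell division were lower, most of all in mutant 1. All 30 genes of the mitosis list had a negative log2 fold change. In every mutant lung 17 of them lay below the controls, against 14.3% of all genes. None passed an adjusted p of 0.05 by limma. At an unadjusted p under 0.05, 18 were lower, against 1453 of all 17175 genes tested. The median of the list was -0.78 in the 3 mutants together and -0.38 without mutant 1. The list's genes below were 26 without control 3 and 30 without mutant 3. Spc25, a kinetochore subunit, had 671, 579 and 569 normalized counts against 242, 352 and 477 (1.76-fold lower, log2 fold change -0.81, SE 0.22, adjusted p = 0.148). Ube2c, the ubiquitin conjugase of the anaphase promoting complex, had 1705, 1265 and 1130 against 444, 771 and 1001 (1.92-fold lower, adjusted p = 0.168). Cenpf, a protein of the outer kinetochore, had 1279, 1033 and 997 against 296, 689 and 728 (2.07-fold lower, adjusted p = 0.168). In each of the 3 genes mutant 1 was lowest. Top2a, the topoisomerase of dividing cells, had 3995, 3493 and 2866 against 1136, 2162 and 2896, so mutant 3 overlapped the controls. The genes of DNA replication had a median of -0.47, with 4 of 24 below in every mutant lung (16.7%, against 14.3% of all genes). The median was -0.24 without mutant 1, and the genes below were 20 without control 3 and 22 without mutant 3 (83.3% and 91.7%, against 20.7% and 24.9% of all genes). The thymidylate synthase Tyms had 674, 673 and 535 against 323.5, 450 and 510.5 (log2 fold change -0.57, adjusted p = 0.172).

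Promoters are shown for this list too, for the same reason. TTTGAA, the core of the cell cycle homology element through which mitotic genes are repressed in resting cells, was in 19 of the 26 mitosis genes with a promoter in the table (73.1%) against 20.2% of all genes, and CCAAT, the sequence bound by NF-Y, in 20 of 26 (76.9%) against 41.1%. The stretches are on the gene's strand, 5′ to 3′, with TTTGAA or its reverse complement in capitals.
Top2a (chr11:99024323-99024408, minus strand): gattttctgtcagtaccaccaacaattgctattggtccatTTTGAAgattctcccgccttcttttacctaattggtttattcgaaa
Kif2c (chr4:117178830-117178915, minus strand): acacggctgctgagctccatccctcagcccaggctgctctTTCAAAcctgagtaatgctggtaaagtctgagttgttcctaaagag
Mki67 (chr7:135716432-135716517, minus strand): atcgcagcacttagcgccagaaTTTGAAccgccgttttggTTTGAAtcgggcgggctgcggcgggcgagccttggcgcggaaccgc

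These genes are the topoisomerase above, a kinesin that removes microtubule ends and the proliferation marker Ki-67, with log2 fold changes of -0.83, -0.87 and -0.91. TTTGAA was in 1 of 12 of the genes that rose and 1 of 9 of those that fell for which the table held a promoter.

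Defence genes were higher in part. Of 20 genes of the acute phase and airway defence list, 9 were higher in every mutant lung (45%, against 15.5% of all genes). The 3 that rose were Pigr, Serpina3g and Serpina3f. The median log2 fold change was 1.08, and 16 were higher without mutant 3 (80%, against 27.3% of all genes). Saa3, a serum amyloid A made at mucosal surfaces, had 34.1 and 28.8 normalized counts against 589, 566 and 104 (log2 fold change 3.34, SE 0.72, adjusted p = 0.115), and Hp, haptoglobin, had 2064 and 2229 against 7313, 7943 and 3758 (2.81-fold, adjusted p = 0.11). Cxcl17, a chemokine of mucosal epithelium, had 14.1 and 21.8 against 377, 526 and 146 (16.6-fold, log2 fold change 4.06, SE 0.52, adjusted p = 0.0577). Mutant 3 was again the lowest mutant in each. Markers of neutrophils had a median of 0.48, with 1 of 14 above in every mutant lung (7.14%). The median of macrophage markers was 0.06, with 2 above and 1 below of 22 (9.09% and 4.55%), and that of cytokines and chemokines was -0.10. Of all genes, 15.5% lay above and 14.3% below. Neutrophil markers stood at 0.95 in mutant 1, 0.41 in mutant 2 and -0.05 in mutant 3 relative to the controls, which ran from -0.28 to 0.16, and the median log2 fold change was 0.19 without mutant 1. Genes of the interferon response had a median of 0.26, with 10 of 23 above (43.5%, against 15.5% of all genes), and of 0.15 without mutant 1.

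Markers of tissue that can come with a dissected lobe differed between the lungs. Over the cardiac and skeletal muscle markers with a value in every lung, the sum ran from 1502 to 5916 normalized counts in the controls and was 16446, 6854 and 2459 in mutants 1 to 3. Heart muscle genes such as Myh6 and Actc1 carried that sum. The mesothelium and nerve markers summed to between 3135 and 3561 in the controls and to 7793, 3787 and 3393 in the mutants, with Msln, the mesothelial surface protein, at 4747 in mutant 1. Cartilage markers, which come with the larger airways, summed to between 629 and 689 in the controls and to 1032, 995 and 753 in the mutants. The median log2 fold change of the list was -0.12, however, and 5 of 14 genes had a positive one. In every mutant lung 2 of them lay above, against 15.5% of all genes. Col2a1, the cartilage collagen, had 109, 85.3 and 72.4 against 188, 209 and 194 (2.23-fold, log2 fold change 1.16, adjusted p = 0.0713). The adipocyte hormone Adipoq was listed at 0 in all controls and at under 2 in the mutants. The sums of cartilage and muscle markers were highest in mutants 1 and 2, as the airway lists were, and their part in the airway results was not tested.

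Red cell genes had a median of -0.31, with 1 of 12 above and 1 below, which came to -0.78 with 7 below without control 3 and to -0.027 without mutant 3. Of all genes, 15.5% lay above and 14.3% below, and 20.7% lay below without control 3. Among the remaining lists, 17 of 40 ribosomal protein genes were higher in every mutant lung by small amounts (median 0.12). Lipid synthesis showed 9 of 23 lower and 1 higher, with the cholesterol genes Hmgcs1 (3775, 3423 and 3270 against 2606, 2626 and 2810; 1.30-fold lower, adjusted p = 0.0996) and Insig1 (1341, 1297 and 1249 against 754, 984 and 1048; 1.41-fold lower, adjusted p = 0.126) having the lowest p. Per1, a clock gene that also answers to glucocorticoid, had 4860, 4438 and 5269 against 3315, 2489 and 1962 (1.91-fold lower, log2 fold change -0.94, SE 0.17, adjusted p = 0.0857). The long noncoding RNA Meg3 had 1279, 922 and 943 against 3301, 3000.4 and 1523 (2.38-fold, adjusted p = 0.113), and the growth inhibitor Cdkn1c, imprinted like Meg3, had 1559 and 1462 against 3413, 2732 and 1948 (1.74-fold, adjusted p = 0.154).

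The lungs of Vangl2 mutants at P5 and of Ror2 mutants at P2, which used the same Cre, gave values for the same genes against control lungs that were not shared. Of the 15 genes that rose here, 15 were higher in the Vangl2 mutants at P5, 11 with an unadjusted p under 0.05 (10.4% of all genes there were higher at that p) and 2, Serpina3g and Aqp3, with an adjusted p under 0.05. The 15 include Gabrd, at a log2 fold change of only 0.15 in the Vangl2 mutants (limma, unadjusted p = 0.905). Of the 16 that fell, 12 were lower there, 7 with an unadjusted p under 0.05 (8.35% of all genes were lower). In the Ror2 mutants at P2, 13 of the 15 were higher, 7 with an unadjusted p under 0.05 (9.56% of all genes), and 12 of the 16 were lower, 7 at that p (9.71% of all genes). None of the 31 passed an adjusted p of 0.05 at P2, where no gene of 17537 did (3379 at an unadjusted p under 0.05). Stc1, Aoc3, Ccdc80, Rgs5, Disp2 and Arsb were lower at an unadjusted p under 0.05 in both other comparisons, and Clic3, Aqp3, Serpina3f and Nxph3 were higher in both.

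The lists differed in how far they recurred, as a description with no test. The median log2 fold changes of the club, ciliated and neuroendocrine lists were 1.06, 1.27 and 1.03 in the Vangl2 mutants at P5, near the 1.27, 1.15 and 1.22 here. At P2 they were 0.16, -0.08 and 0.22. Mitosis genes had a median of -0.65 in the Vangl2 mutants and -1.80 in the Ror2 mutants at P2, against -0.78 here. Acute phase genes had 2.51 and neutrophil markers 1.90 in the Vangl2 mutants, against 1.08 and 0.48 here. Elastic fibre genes had -0.49 and smooth muscle genes -0.63, against -0.30 and -0.21 here.

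**Figure D4:**
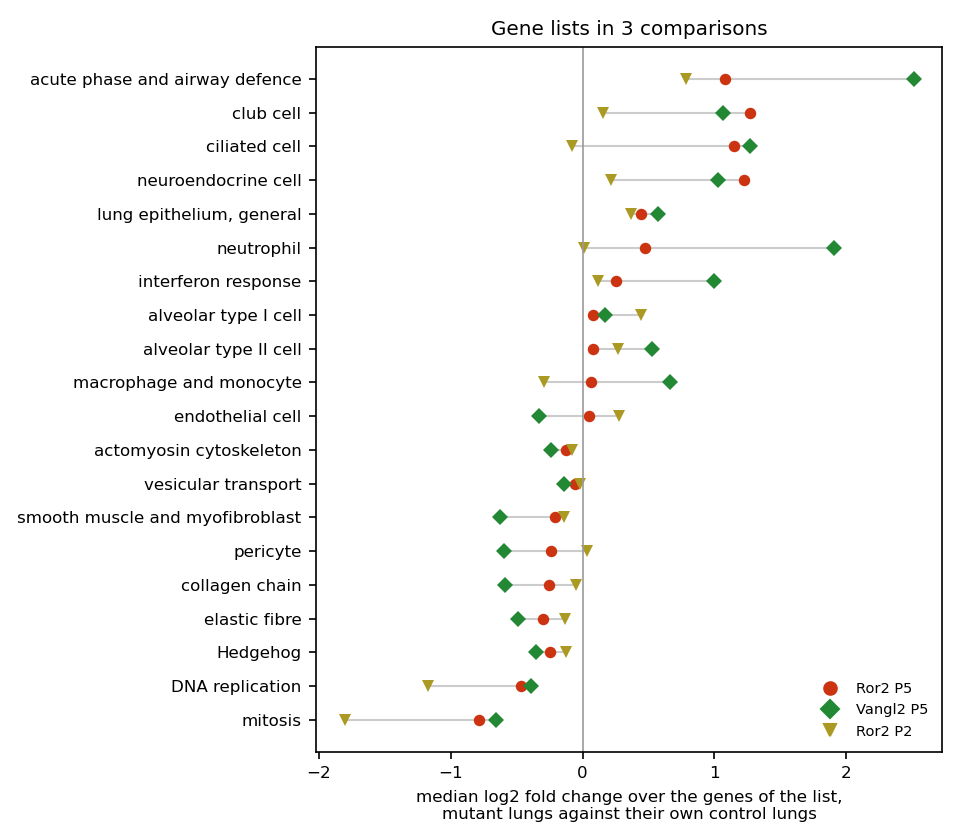
Median log2 fold change (x axis) over the genes of 20 lists (y axis) in Ror2 mutants at P5 (circles), Vangl2 mutants at P5 (diamonds) and Ror2 mutants at P2 (triangles), each against its own control lungs. The airway lists lie near 1 at P5 in both mutants and near 0 at P2, and the mitosis list lies lowest at P2 (-1.80).

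The difference between the mutants was tested gene by gene. Against the Vangl2 mutants at P5, 2 of 16885 genes differed at an adjusted p under 0.05 (0.0118%; 808 at an unadjusted p under 0.05). Il1rn, the antagonist of the interleukin-1 receptor, had 144, 101 and 115 normalized counts in the Ror2 controls and 96.2, 84.6 and 89.7 in the Ror2 mutants. In the Vangl2 comparison it had 126, 110.5 and 87.7 in the controls and 415, 458 and 453 in the mutants. The log2 fold changes were -0.40, which did not pass by itself (limma adjusted p = 0.29), and 2.04. Their difference was -2.43 (SE 0.26, adjusted p = 0.00827). Zfp429 was the other, with 97.6, 105 and 97.7 in the Vangl2 controls and 115.5, 189 and 157 in the Vangl2 mutants, a difference of -4.21 (SE 0.46, adjusted p = 0.00827). The next lowest adjusted p was 0.0521, for Mael, a gene of the germ line. Prickle1 had log2 fold changes of 0.51 here and -0.51 in the Vangl2 mutants, and the adjusted p of that difference was 0.50. Against the Ror2 mutants at P2, 0 of 16988 genes differed at an adjusted p under 0.05 by limma (0%), 1616 did so at an unadjusted p, and the lowest adjusted p was 0.451. The genes of lowest p there included Kcnq5, a potassium channel subunit, and Junb, an immediate early factor, with differences of -0.79 and -1.21.

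Of the 31 genes, 4 lie on chromosome 13, the chromosome of Ror2: Ogn 3.50 Mb to one side of it, and Zfp429, Irx1 and Arsb 14.3, 18.8 and 40.7 Mb to the other. All 4 fell. They were 0.659% of the 607 genes tested on that chromosome, against 0.180% over all, and this was noticed after the values had been seen. At P2 the log2 fold changes were 0.01 for Ogn, -2.55 for Zfp429 (48.5, 44.1 and 82.9 normalized counts against 12.4, 5.69 and 9.45), 0.17 for Irx1 and -0.68 for Arsb. Zfp429 was thus low in all 6 Ror2 mutant lungs at both ages and not in the Vangl2 mutants. The part of chromosomal position in these differences was not tested.

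**Figure D5:**
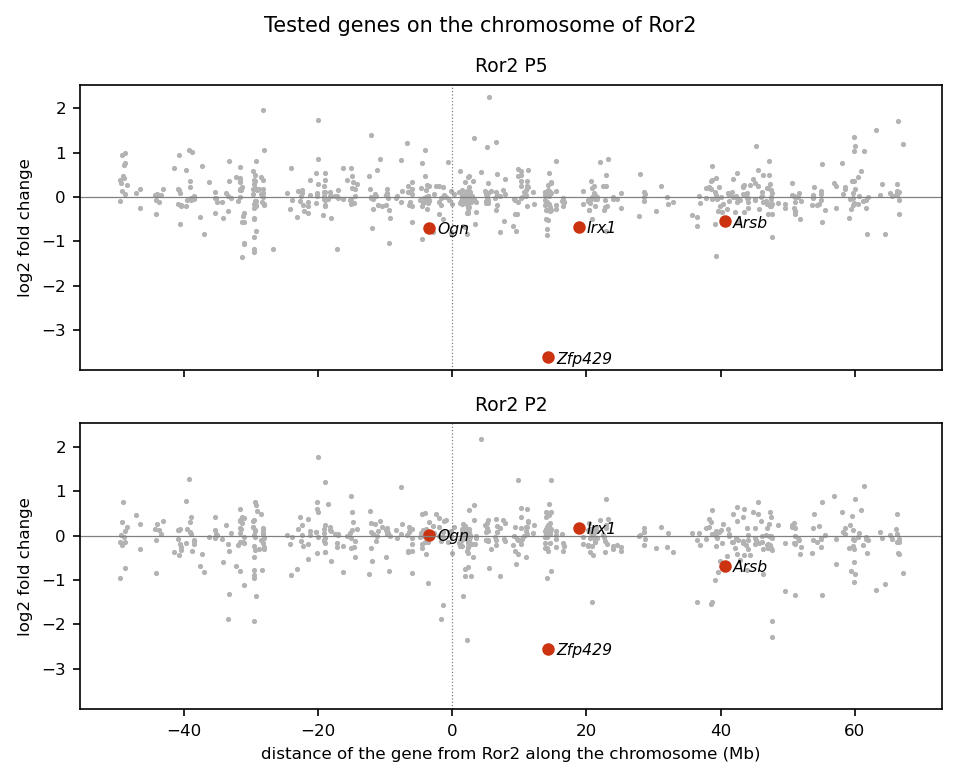
Log2 fold change (y axes) of each tested gene on the chromosome of Ror2 against its distance from Ror2 in Mb (x axis), at P5 above and at P2 below, with the 4 genes past the threshold at P5 in red. Zfp429 lies lowest at both ages, at -3.62 and -2.55, while Ogn and Irx1 lie near 0 at P2.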

How the data were processed

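RNA of the left lobe (TRIzol, RNeasy) was sequenced on an Illumina HiSeq instrument. The signal values deposited by the authors are gene read numbers scaled by lung-specific size factors, in tables of 6 lungs and 23420 rows. The submitters' processing notes name DESeq2 and mm10, and the aligner and read counter are not given in the sources used here. Columns of the authors' own comparisons (fold changes, p-values and statistics) and the Vangl2 P2 table were not used. Normalized counts summed to 12891485 in control 1 and to between 18411623 and 19488899 in the other 5 lungs.

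Values were tested as log2(normalized count + 1) with limma 3.58.1 in R 4.3.3 (lmFit, then eBayes with its trend option), for genes at 1 or more in at least 3 lungs, and differences between comparisons were tested over the 12 lungs of both tables. Control 1 was set to missing for 7953 genes, placed by matching names to the annotation (21571 by symbol, 1663 by an older name). Of 4462 such genes with at least 10 in each other lung, 1 was above 0 in control 1, and of 9614 other genes 0 were at 0. The 182 genes with no place were also set to missing, as were Naa38 and Pgm1 after their 0 was seen, and 4 rows with repeated names were left out. Groups came from the titles, since the genotype entries of the Vangl2 P5 and Ror2 P2 mutants name the other gene. The scripts were tested on simulated data. The values of 2 genes are not reported here, though counts and medians include them.

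The members and lists were chosen with earlier results of these data known. The genes to name were Ror2, Wnt5a, Vangl2, Pdgfa and Pdgfra, the 10 of lowest p in each direction, up to 4 of lowest p in each list (those with a mean of at least 50 first) and the 5 of lowest p in each difference. The rest of the 31 genes past the threshold and some known markers (such as Scgb1a1, Sftpc, Aqp5, Acta2, Eln, Top2a, Sox9 and Ror1) were added after their values were seen. Alternatives varied the treatment of control 1, the pseudocount, the filter, the scaling (TMM by edgeR, version 4.0.16), a replicate block, the variance model and the lungs included.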

Additional observations from a re-analysis of the deposited data

Results flagged for a closer look

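The difference between mutant and control was itself different in the Ror2 and Vangl2 mutants at P5 for 2 genes, by a test of that difference over 12 lungs (limma adjusted p = 0.00827 for both). For Il1rn the log2 fold change in Ror2 mutants minus that in Vangl2 mutants was -2.43, with 3 of 3 Vangl2 mutant lungs above and 3 of 3 Ror2 mutant lungs below their controls. Its fall in Ror2 mutants did not pass by itself (limma adjusted p = 0.29), and 14.3% of all genes lay below in every Ror2 P5 mutant lung. For Zfp429 the difference of log2 fold changes was -4.21, with 3 of 3 Ror2 mutant lungs below and 3 of 3 Vangl2 mutant lungs above their controls. Its rise in Vangl2 mutants did not pass by itself (limma adjusted p = 0.247). Both missed the adjusted threshold without control 3 (adjusted p = 0.0515) and with control 1 as deposited (adjusted p = 0.0786).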

How the results depend on the processing

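Against 31 genes past the threshold, control 1 as deposited gave 1 (it moved the median log2 fold change of all genes to 0.179), the replicate block 1 and a spread shared with the Vangl2 P5 lungs 3. The other settings of pseudocount, filter, scaling, robust variance and missing genes gave between 21 and 37, and leaving out 1 lung between 0 and 1007. Of the 31 genes, 30 passed without mutant 1 and 30 without mutant 3, but 4 without control 1, 0 without control 2, control 3 or mutant 2, and 1 (Retnla) with the block. Gabrd was not tested when a mutant was left out. Deviations of lungs with the same replicate number from their group means correlated at 0.104, -0.0814 and -0.170. With 3 lungs in a group, these values cannot settle whether the numbers pair the lungs. With the block the genes that differed from Vangl2 P5 were 3. That count was 2, 0 with control 1 as deposited, between 0 (without control 3) and 4 (without mutant 1) leaving out 1 lung, and 2 or 3 otherwise. Against Ror2 P2 it was 0 throughout. The log2 fold change of Ror2 ran from -0.36 to -0.01 and its adjusted p from 0.399 to 0.984.

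Taking the empty part of control 1 as 0, as deposited, turned the sign of genes with a higher mean in the other 2 controls than in the mutants, which follows from the construction: 1700017B05Rik 2.80, Apln 3.52, Bhlhe40 2.57, Bmp5 3.09, Cd8b1 1.75, Col4a2 4.68, Cox6a1 3.75, Cspg4 2.72, Dusp8 2.44, Exoc4 2.86, Fzd4 3.36, Hhip 3.68, Ier2 3.19, Junb 2.93, Jund 4.05, Limk1 3.11, Mfap5 2.68, Nkd1 3.66, Pdgfra 3.52, Pdgfrl 2.54, Pgk1 3.19, Pola1 2.50, Prx 3.92, Sox5 2.60 and Uchl1 2.28. Leaving out 1 lung gave -0.11 to 0.16 for Ctss, -0.59 to 0.61 for Lrrn4 and -0.11 to 0.89 for Msln (both negative only without mutant 1), and -0.064 to 7.31 for Ddx3y, -0.051 to 8.31 for Kdm5d and -0.11 to 6.93 for Uty, Y genes that were negative only without the female control 2. The planned edgeR and DESeq2 tests on reads were not run, since whole reads could not be recovered in 2 lungs. Of alternatives for the named genes that passed, 218 kept the call, 146 lost it and 3 turned its direction. How far the depth or the number of lungs limits the calls was not tested.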
